A study of Rattus norvegicus with 6 samples.

Results

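The genes described here encode the semaphorins, netrins, slits and ephrins, which guide growing axons and vessels, together with their plexin, neuropilin, Unc5, Robo and Eph receptors. They were taken from the deposited expression table by symbol alone, and 67 of its 22081 genes matched: 7 class 3 semaphorins, 13 membrane-bound semaphorins, 9 plexins, 2 neuropilins, 4 netrins, 4 Unc5 receptors, 3 slits, 3 Robo receptors, 5 ephrin-A ligands, 3 ephrin-B ligands, 9 EphA receptors and 5 EphB receptors. RNA sequencing was done on 3 rupture-prone intracranial aneurysms (IAs), and in each of these 3 animals also on the rest of the circle of Willis, the ring of arteries at the base of the brain, which served as the control artery. All were female Sprague Dawley rats that had undergone bilateral ovariectomy, ligation of the left carotid, right external carotid, right pterygopalatine and left renal arteries, and tissue was taken on day 63. Their chow held 3-aminopropionitrile at 0.12%, a lysyl oxidase inhibitor that weakens collagen and elastin, and salt at 8%. Lesion and circle of Willis share all of these treatments, and no untreated artery was analysed here, so the comparison is between a dilated segment and the rest of the same diseased vessel ring.

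Secreted class 3 semaphorins bind neuropilins, which pair with plexins to signal, and most membrane-bound semaphorins bind plexins directly. Netrins act through Dcc, neogenin and the Unc5 receptors, and slits act through the Robo receptors. Ephrins are themselves anchored to the cell surface, ephrin-A by a lipid and ephrin-B by a transmembrane segment, so that Eph signalling needs contact between cells and can run in both directions. In vessels these systems are known for arterial and venous identity, endothelial branching and smooth muscle contact, and in immune cells several semaphorins act as costimulatory or adhesion molecules.

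The 6 libraries held 65823027 to 70705938 counts assigned to genes. Levels are given as the TPM values that the authors deposited, which are scaled by gene length and to the same total in each library. Differences within an animal are given as the log2 ratio of lesion to circle of Willis in counts normalized to library size (CPM), after a prior count of 2 that draws the ratios of low genes toward 0, with a standard error over the 3 animals. Where 3 values follow each other they belong to animals 1, 2 and 3 in that order. The marker sums of some cell types moved between libraries. The sum of 8 oligodendrocyte and myelin markers was 382, 4181 and 530.4 TPM in the lesions and 155, 143 and 407 TPM in the circle of Willis. The sum of 7 macrophage markers was 2773, 4705 and 9902 TPM in the lesions and 2097, 1125 and 2254 TPM in the circle of Willis. Most of each sum was Lyz2, at 2388, 4090 and 8680 TPM in the lesions. Of the 7 markers 2 were over 1.5-fold higher in all 3 animals, and 1, Cd163, was lower. Their median log2 ratio was -0.07, 0.61 and 0.95. The sum of 7 endothelial markers was 608, 319.6 and 306 TPM in the lesions and 690.1, 697 and 799 TPM in the circle of Willis. The sum of 7 smooth muscle markers was 6480, 8121 and 2941 TPM in the lesions and 8678, 4913 and 14422 TPM in the circle of Willis, so that the control artery of animal 3 held the most and its lesion the least. The sum of 5 pituitary markers was 13.8, 35.2 and 212 TPM in the circle of Willis and 14.7, 9.71 and 6.83 TPM in the lesions. In the control artery of animal 3, Cga alone gave 191 TPM and Pomc 19.4 TPM, while Lhb had 1.51 TPM and Prl and Gh1 had 0 TPM. Prl, Gh1 and Cga each had no count in at least 1 library. The lesion of animal 2 stood apart in its choroid plexus sum as well, at 13111 TPM for 5 markers against 48.3 to 243 TPM in the others. The share of counts from mitochondrial genes was 8.81, 4.36 and 5.29% in lesions, below the control arteries at 9.08, 9.33 and 10.6%. In such tissue samples, fewer cells of a type and less RNA per cell cannot be told apart.

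In the circle of Willis, 21 of the 67 genes had a median of at least 10 TPM, 32 lay between 1 and 10 TPM and 14 lay under 1 TPM. Plxnb2, a plexin of many tissues, was the highest at 85.8, 78.6 and 67.1 TPM. It was followed by Efnb3 at 65.6, 76.5 and 38.9 TPM and Efnb1 at 62.9, 55.3 and 36.5 TPM, both ephrin-B ligands, and by Sema3b at 54.5, 46.8 and 29.4 TPM and Robo1 at 41.5, 46.4 and 17.6 TPM. Plxnd1, the endothelial receptor of Sema3e, had 36.7, 28.9 and 28.8 TPM, and Ephb4, the receptor of venous endothelium, had 28.1, 29.7 and 20.9 TPM. Down to Efna1, which was rank 12, the range of each gene over the 3 libraries overlapped with that of the next one. Within each circle of Willis library, however, the order from Plxnb2 through Efnb3, Efnb1 and Sema3b to Robo1 was the same. In the lesions Plxnb2 stayed first with 72.7, 83 and 101 TPM and Efnb1 came second with 59.7, 46.6 and 51 TPM, whereas Efnb3 held rank 12, Robo1 rank 14 and Sema3g rank 28. Nrp2 moved from rank 8 to rank 3.

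**Figure D1:**
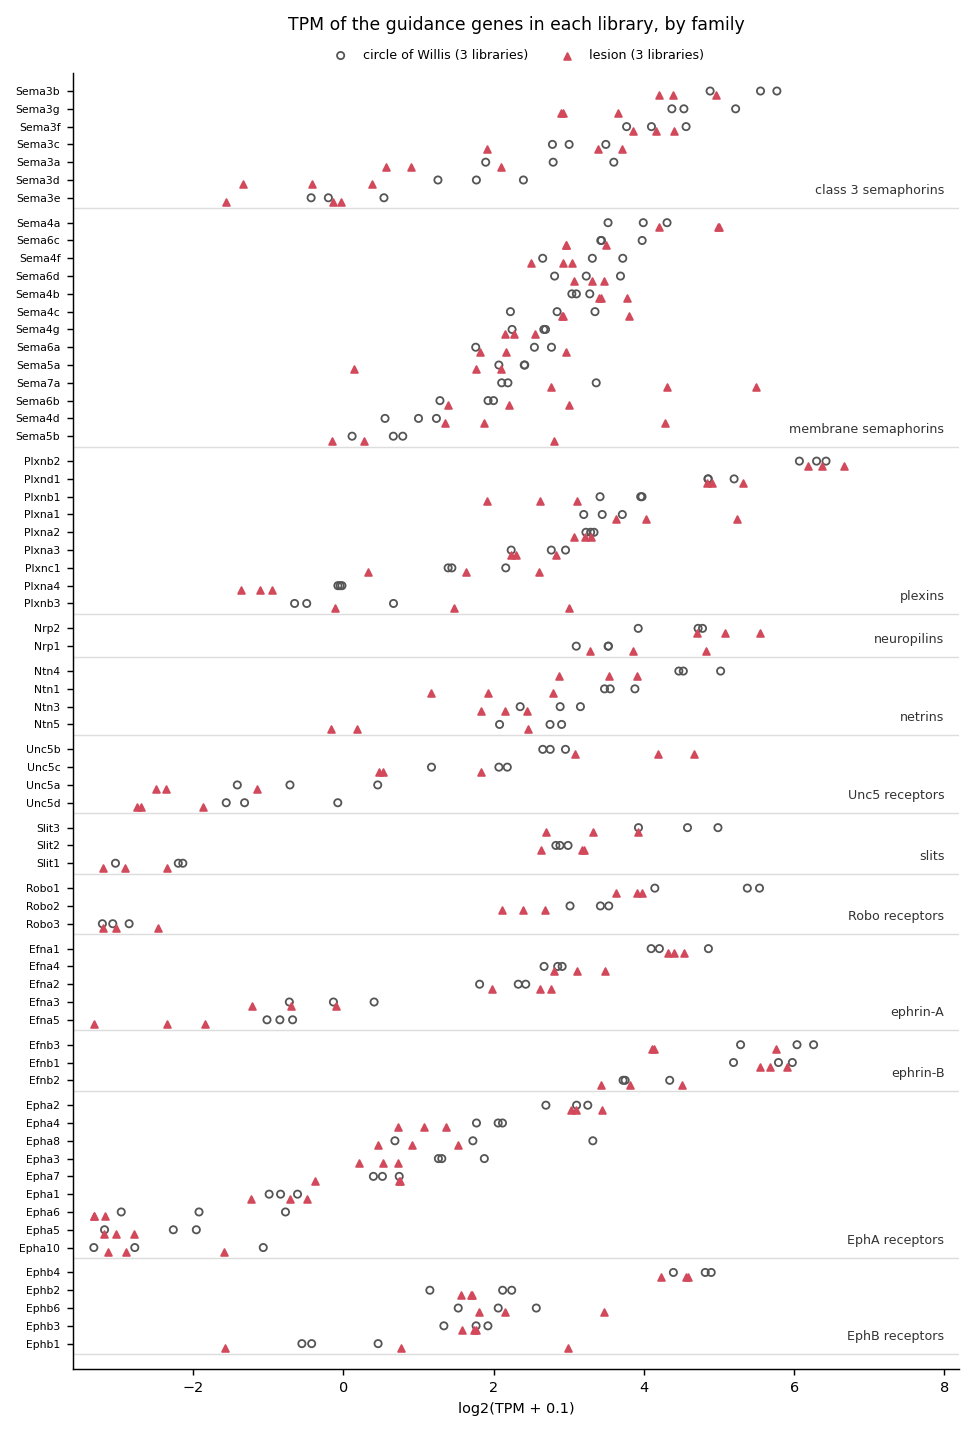
TPM of each of the 67 guidance genes on a log2 scale (0.1 TPM added), with open circles for the 3 circle of Willis libraries, red triangles for the 3 lesions and genes ordered within each family by their median in the circle of Willis. Plxnb2 is the highest gene in both tissues, and the triangles of Sema3d, Ntn1, Plxna4 and Robo2 all lie to the left of the circles.

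Few guidance genes were higher and more were lower in the lesions, and no single gene passed the test across all genes. After a filter on low counts 64 of the 67 were tested, and Epha6, Epha10 and Robo3 were not. By the rule of over 1.5-fold within each of the 3 animals, which follows the threshold used in the study, 2 of 64 were higher, where 2.75% of all 15367 genes tested were, and 11 of 64 were lower, where 5.51% of all genes tested were. Those higher were Sema7a and Plxnb3. Those lower were Sema3b, Sema3d, Sema3g, Plxna4, Plxnb1, Ntn1, Unc5a, Unc5d, Robo2, Epha4 and Efna5, of which Sema3g, Epha4 and Unc5a no longer passed with DESeq2's size factors. The rule has no error estimate, and just inside it the weakest of 3 ratios was 0.661 for Unc5a and 0.660 for Epha4, while just outside it was 0.667 for Sema3a and 0.675 for Epha3. In TPM, every lesion lay above every circle of Willis for 3 members (8.34% of all genes tested) and below for 13 (12% of all genes tested). With a block for the animal, edgeR's quasi-likelihood test gave 0 members in either direction an adjusted p under 0.05 (0% of all genes tested), and their adjusted p ran from 0.159 to 0.998. At an unadjusted p under 0.05 it had 5 members higher, where 8.63% of all genes were, and 18 lower, where 12% of all genes were. With the same block and threshold on the adjusted p, DESeq2 called 3 members higher (Sema7a, Unc5b and Plxnb3) and 15 lower, where it called 5.38% of all genes higher and 6.37% lower, and limma-voom called none (0% of all genes). The counts changed when an animal was left out, and the 1.5-fold rule is then easier to pass because fewer animals must agree. Without animal 1, the 1.5-fold rule gave 7 members higher and 18 lower, beside 11.6% and 11.9% of all genes. Without animal 2 it gave 2 and 12, beside 3.88% and 9.61%, and without animal 3 it gave 2 and 17, beside 4.39% and 6.95%. Members without overlap numbered 15 higher and 23 lower without animal 1, beside 27.6% and 25.7% of all genes, which is a larger share because fewer libraries must be separated. They numbered 5 and 18 without animal 2, beside 15.4% and 28%, and 6 and 25 without animal 3, beside 15% and 21.9%. At the unadjusted p from edgeR 2 were higher and 10 lower without animal 2, beside 2.9% and 6.59% of all genes, and 3 and 15 without animal 3, beside 3.56% and 6.27%.

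**Figure D2:**
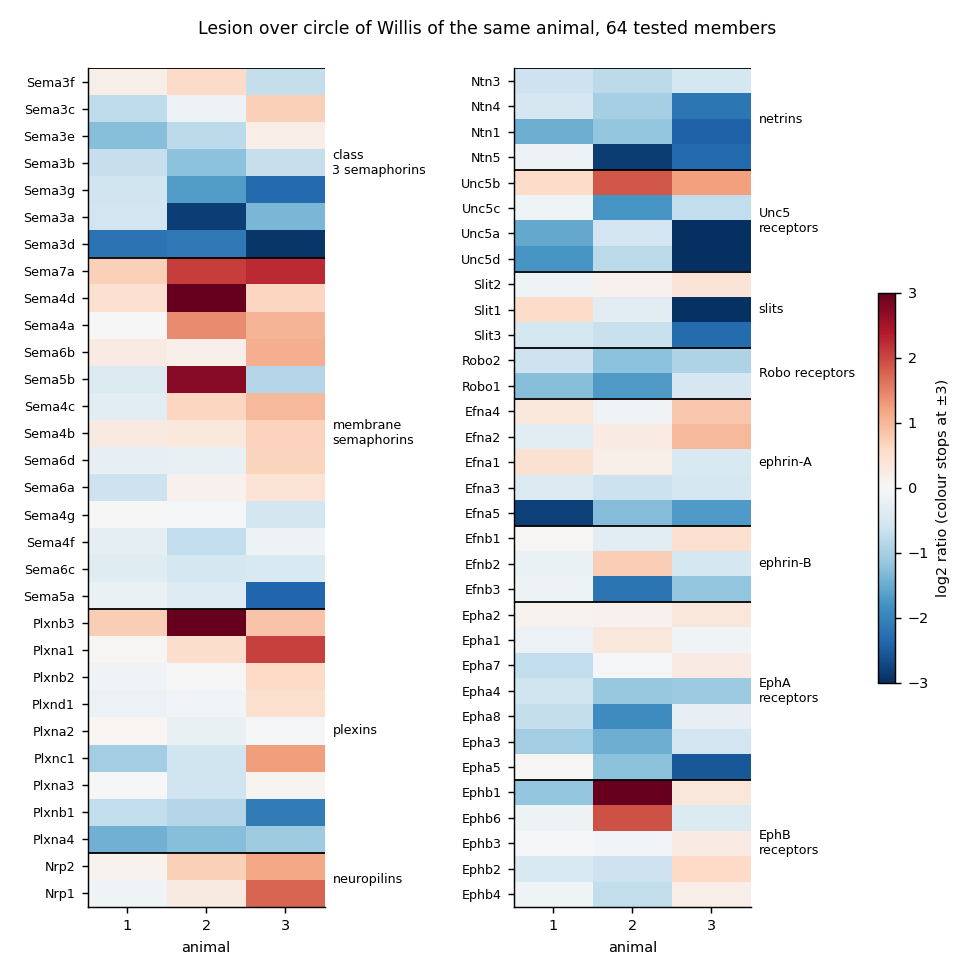
Log2 ratio of lesion to circle of Willis within each animal for the 64 tested members, 1 row for each gene and 1 column for each animal, red for higher and blue for lower in the lesion. The netrins and most class 3 semaphorins are blue in all 3 columns, while Sema4d, Sema5b, Plxnb3 and Ephb1 are darkest red in animal 2.

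Sequences before the start of 4 genes are shown as examples of each direction, chosen after their values were seen, Sema7a and Unc5b on the higher side and Sema3d and Sema3g on the lower side. Each is the 120 bases before the gene's start on its own strand, from RefSeq on build GRCr8, which is not the build of the counts, and 52 of the 67 members were matched by symbol. Capitals mark GC boxes (the letters GGGCGG on either strand) and CCAAT boxes (the letters CCAAT on either strand). Sema7a lies at chr8:67244198-67244317 on the plus strand, Unc5b at chr20:29307271-29307390 on the minus strand, Sema3d at chr4:23460972-23461091 on the minus strand and Sema3g at chr16:6419905-6420024 on the plus strand.
Sema7a: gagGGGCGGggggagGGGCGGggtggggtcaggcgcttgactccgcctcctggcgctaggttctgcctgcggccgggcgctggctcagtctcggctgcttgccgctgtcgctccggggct
Unc5b: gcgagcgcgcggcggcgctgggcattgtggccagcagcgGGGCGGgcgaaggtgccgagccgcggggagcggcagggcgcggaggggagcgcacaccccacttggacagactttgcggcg
Sema3d: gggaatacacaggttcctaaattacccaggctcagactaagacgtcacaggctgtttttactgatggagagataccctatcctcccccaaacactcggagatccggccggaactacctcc
Sema3g: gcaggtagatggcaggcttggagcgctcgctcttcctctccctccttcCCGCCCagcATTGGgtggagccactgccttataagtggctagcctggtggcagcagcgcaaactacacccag
Within 250 bases before the start, on either strand, a GC box was found in 30 of 52 member promoters (57.7%) and in 32.4% of all 27457 promoters of the table. The CCAAT box was found in 34.6% of the member promoters and in 34.3% of all. The AP-1 motif, searched as the letters TGANTCA, was in 1.92% of the members and in 6.36% of all promoters. For the core of the hypoxia element, searched as ACGTG, the shares were 15.4% and 16.9%. For the TEAD motif, searched as GGAATG, they were 9.62% and 11.8%. The TATA box, searched as TATAAA, was found in none of the member promoters and in 13.1% of all. Matches of 1 motif could overlap each other, and only their presence was counted. Sema7a, Unc5b and Sema3g hold a GC box in the stretch shown and Sema3d does not, so this motif is found on both sides of the contrast.

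Secreted class 3 semaphorins were mostly lower in the lesions. Their summed level was 70, 63.6 and 55.4 TPM in the lesions against 109.7, 113 and 105 TPM in the circle of Willis, a ratio of 0.638, 0.562 and 0.529 within the 3 animals. The median log2 ratio of the 7 genes was -0.87, beside -0.03 over all genes tested, and 3 of 7 were over 1.5-fold lower in every animal. Sema3d (Rnor6 chromosome 4, 19224310 to 19413484), known for patterning endothelial cells, had 0.652, 1.21 and 0.296 TPM in the lesions and 3.31, 5.17 and 2.29 TPM in the circle of Willis. The 2 tissues did not overlap, and its log2 ratio of -2.42 (standard error 0.24) was the lowest of the members, with adjusted p = 0.159 from edgeR and 2.05e-11 from DESeq2. Sema3g (Rnor6 chromosome 16, 7303578 to 7315390), a semaphorin of arterial endothelium that binds Nrp2, had 12.5, 7.49 and 7.33 TPM in the lesions and 20.6, 23 and 37.2 TPM in the circle of Willis. Again the tissues did not overlap, with log2 ratios of -0.60, -1.68 and -2.34 (edgeR adjusted p = 0.186), and the endothelial marker sum was lower in all 3 lesions too. The part of those cells in the difference was not tested.

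Sema3b, the most abundant of the class, had 31, 20.9 and 18.2 TPM in the lesions and 54.5, 46.8 and 29.4 TPM in the circle of Willis, and every lesion lay below its own control artery although the lesion of animal 1 was above the control of animal 3. Its log2 ratio was -0.87 (standard error 0.18), with adjusted p = 0.174 from edgeR. Sema3a, which repels axons and restrains endothelial cells through Nrp1, had 4.19, 1.77 and 1.38 TPM against 6.83, 12 and 3.62 TPM. Its log2 ratios of -0.58, -2.82 and -1.38 differed more between animals, and the first falls just short of 1.5-fold. Sema3c, known from the cardiac outflow tract, had 3.66, 10.4 and 13 TPM against 6.78, 11.2 and 7.93 TPM and went in opposite directions in animals 1 and 3, at log2 ratios of -0.77, -0.17 and 0.71. Sema3e, the ligand that binds Plxnd1 without a neuropilin, stayed under 1.4 TPM in each library. Sema3f, a ligand of Nrp2, was the only one of the 7 with a mean log2 ratio above 0, at 0.02 (standard error 0.38), and its region in the table overlaps that of Gnat1 on the same strand.

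Netrins were lower in each of the 3 lesions. Their sum was 28.4, 24.6 and 13.6 TPM in the lesions and 47.9, 52.8 and 53.1 TPM in the circle of Willis, so that the ratios within an animal were 0.593, 0.466 and 0.256. The 4 genes had a median log2 ratio of -1.45, all 4 had an unadjusted p under 0.05 from edgeR and none passed when adjusted. Ntn1 (Rnor6 chromosome 10, 54761871 to 54967585) attracts axons through Dcc and repels them through Unc5 receptors. It had 3.68, 6.79 and 2.14 TPM in the lesions and 11, 14.6 and 11.6 TPM in the circle of Willis, without overlap, and a log2 ratio of -1.68 (standard error 0.38) with adjusted p = 0.174 from edgeR and 0.000166 from DESeq2. Ntn4, a laminin-binding netrin of basement membranes, had 15, 11.5 and 7.23 TPM against 22.9, 22 and 32.4 TPM, also without overlap, and log2 ratios of -0.49, -1.0 and -2.16. The difference was largest in animal 3, where the endothelial and smooth muscle marker sums also differed most. By the median log2 ratio of the markers, smooth muscle was lowest in animal 3, at -0.30, 0.34 and -2.43. Endothelium was lowest in animal 2 by that measure, at -0.09, -1.35 and -0.92. The part of these cell types in the difference of Ntn4 was not tested. Ntn3 had the most even log2 ratios of the family, at -0.62, -0.78 and -0.53. Ntn5 had 5.39, 1.04 and 0.793 TPM in the lesions and 6.63, 7.39 and 4.12 TPM in the circle of Willis, so that animal 1 kept most of it and animals 2 and 3 did not.

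Among the netrin receptors Unc5b stood apart from the other 3, so that the family's median log2 ratio was -1.38 while its summed TPM was higher in all 3 lesions. With a CPM of at least 1 required in 3 libraries, which removed low genes, the median was 0.20. Unc5b (Rnor6 chromosome 20, 30339673 to 30406295), a receptor of vascular endothelium and of macrophages, had 8.37, 25.4 and 18 TPM in the lesions and 6.19, 6.64 and 7.66 TPM in the circle of Willis. Every lesion lay above every control artery, with log2 ratios of 0.55, 1.87 and 1.24, adjusted p = 0.182 from edgeR and 0.0024 from DESeq2. It held 57.3, 55.9 and 64.2% of the summed TPM of the Unc5 receptors in the circle of Willis and 70, 93.1 and 92.6% in the lesions. Unc5c had 3.46, 1.35 and 1.29 TPM against 4.1, 4.44 and 2.15 TPM and a log2 ratio of -0.88 (standard error 0.48). Unc5a and Unc5d, receptors of neurons, were at most 1.27 and 0.85 TPM, both in the circle of Willis of animal 3. The raw counts of Unc5d were 8, 22 and 7 in the lesions against 33, 39 and 118, and those of Unc5a were 10, 40 and 12 against 34, 59 and 158. The control artery of animal 3 also had the highest pituitary sum, most of it from Cga. At 71.6 TPM it had the highest sum of 9 neuron markers too, against 13.1 to 62.4 TPM in the other libraries. The part of these cell types in the low counts was not tested.

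Slits and their receptors were lower or similar. Slit3 (Rnor6 chromosome 10, 20320878 to 20518518), a slit of mesenchyme, had 15.1, 9.94 and 6.39 TPM in the lesions and 23.8, 15.1 and 31.6 TPM in the circle of Willis. The highest lesion and the lowest control artery met at 15.1 TPM, and the log2 ratios of -0.54, -0.67 and -2.30 were lowest in animal 3 (edgeR adjusted p = 0.228). Slit2, which repels axons and leukocytes, had 6.08, 8.97 and 9.09 TPM against 7.28, 7.85 and 7.0 TPM and a log2 ratio of 0.12 (standard error 0.15), so its tissues overlapped. Slit1 had 2 to 29 counts per library. Robo1 (Rnor6 chromosome 11, 9642365 to 10143317), a slit receptor of endothelium and many other cells, had 15.7, 14.9 and 12.3 TPM in the lesions and 41.5, 46.4 and 17.6 TPM in the circle of Willis. All lesions lay below all control arteries, and the log2 ratio was -1.17 (standard error 0.35) with adjusted p = 0.182 from edgeR and 0.00321 from DESeq2. Robo2, its close relative on the same chromosome 11, had 6.33, 5.12 and 4.21 TPM against 10.6, 11.5 and 8.0 TPM, also without overlap. Its log2 ratios of -0.62, -1.22 and -0.92 were over 1.5-fold lower in each animal (edgeR adjusted p = 0.174). Robo3 had 2 to 22 counts per library and was not tested, and no gene matched the symbol of Robo4, the endothelial member.

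**Figure D3:**
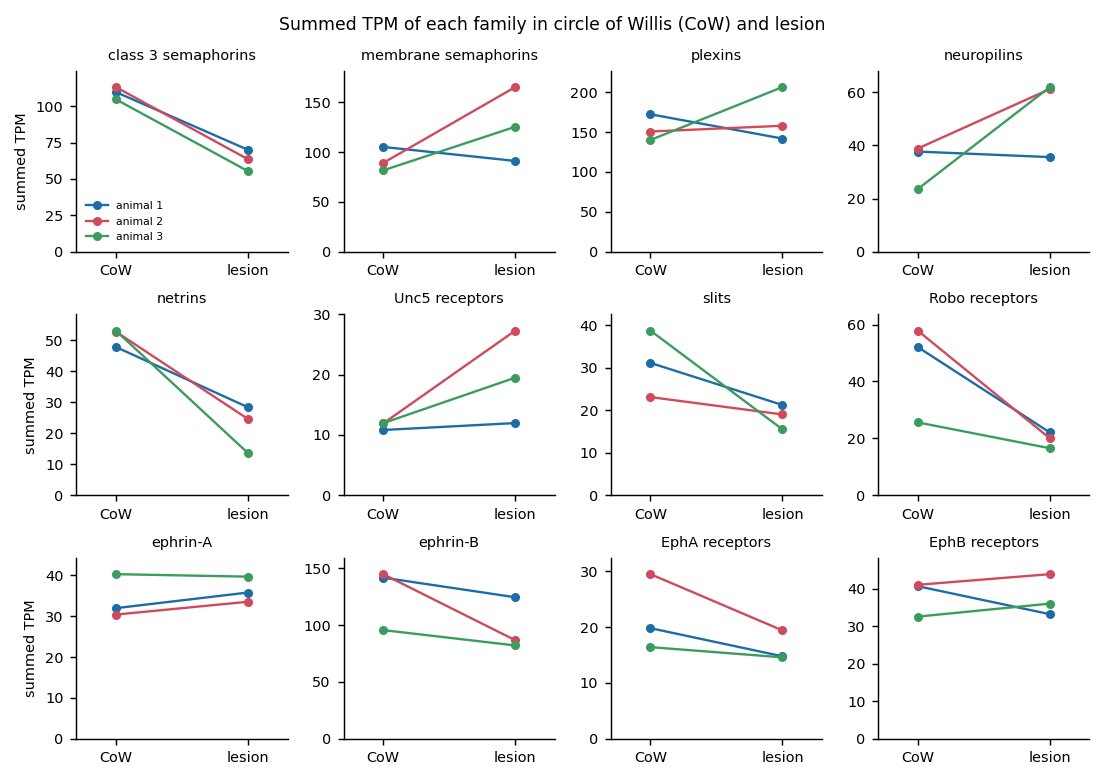
Summed TPM of each of the 12 families in the circle of Willis and the lesion, joined by 1 line for each animal, with each vertical axis starting at 0. Class 3 semaphorins, netrins, slits, Robo receptors, ephrin-B ligands and EphA receptors are lower in the lesion of all 3 animals, and the Unc5 receptors are higher in all 3.

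Netrins, slits and class 3 semaphorins are the secreted ligands among the members, a grouping made after their values were seen. Of these 14 genes, 12 had a mean log2 ratio below 0 and 2 above it, where 53.2% of all genes tested lay below 0, and 4 were over 1.5-fold lower in every animal, beside 5.51% of all genes. Together they held 189, 189 and 197 TPM in the circle of Willis and 119.7, 107 and 84.5 TPM in the lesions. The other 50 tested members had 25 means below 0 and 25 above it, and they held 7 of the 11 genes over 1.5-fold lower in every animal and both of those higher. The medians were -1.04 for the secreted ligands and -0.01 for the others. A p-value over members is not given, since genes are no replicates.

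Membrane-bound semaphorins had a median log2 ratio of 0.42 and 8 of 13 means above 0, where 46.8% of all genes tested lay above 0. Their sum was 91.1, 165 and 125 TPM in the lesions and 105, 89.1 and 81.7 TPM in the circle of Willis, so animal 1 differed in direction from animals 2 and 3. Sema7a (Rnor6 chromosome 8, 62723788 to 62745868) is a lipid-anchored semaphorin that binds Plxnc1 and integrins. It had 6.7, 45 and 19.8 TPM in the lesions and 4.46, 10.2 and 4.21 TPM in the circle of Willis. Each lesion lay above its own control artery, and the lesion of animal 1 lay below the control of animal 2. The log2 ratio was 1.67 (standard error 0.49), with adjusted p = 0.181 from edgeR and 0.000238 from DESeq2.

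Sema4a, a semaphorin of dendritic and T cells, had 18.3, 31.7 and 32 TPM in the lesions and 19.7, 11.4 and 15.8 TPM in the circle of Willis, with log2 ratios of 0.02, 1.41 and 1.02. It was near its control in animal 1 and over 1.5-fold higher in animals 2 and 3, the lesions with the higher macrophage sums, whose part in it was not tested. Sema4b had 10.7, 10.5 and 13.6 TPM against 9.61, 8.13 and 8.48 TPM, and every lesion lay above every control artery by a small margin, at a log2 ratio of 0.42 (standard error 0.13). Sema4d, a semaphorin of T cells and oligodendrocytes that binds Plxnb1, had 2.46, 19.4 and 3.56 TPM in the lesions and 1.9, 1.37 and 2.26 TPM in the circle of Willis. The tissues did not overlap, but the log2 ratios of 0.49, 3.75 and 0.65 set animal 2 far above the others. In the other direction, Sema5a, which carries thrombospondin repeats, had 4.18, 3.29 and 1.0 TPM against 5.21, 4.1 and 5.23 TPM and was far lower in animal 3 only. Sema6c, a transmembrane semaphorin, had log2 ratios of -0.37, -0.54 and -0.47, the most even of the family, with an adjusted p = 0.207 from edgeR.

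Among the plexins the most abundant member was close to level, and the 3 that passed the 1.5-fold rule lay on both sides. Plxnb2 made up 47.9% to 52.2% of the summed plexin TPM in the circle of Willis and 49.1% to 52.6% in the lesions, and its log2 ratio was 0.17 (standard error 0.22). Plxnd1 had 29.8, 28.5 and 40 TPM in the lesions and 36.7, 28.9 and 28.8 TPM in the circle of Willis, and Plxna2 had 9.21, 8.3 and 9.72 against 9.69, 9.27 and 10 TPM, so the tissues overlapped for both. Plxnb1 (Rnor6 chromosome 8, 117836700 to 117856690), the receptor of Sema4d, had 8.52, 6.04 and 3.67 TPM in the lesions and 15.4, 10.6 and 15.6 TPM in the circle of Willis. Its 2 tissues did not overlap, at log2 ratios of -0.74, -0.87 and -2.09 (edgeR adjusted p = 0.195). Slit3, Sema5a and Plxnb1 each had their lowest level in the lesion of animal 3, the library with the lowest smooth muscle sum. Many members of other families were lowest there as well, such as Sema3d, Ntn1 and Robo1, and so was the endothelial sum of 306 TPM. The part of these cell types in these values was not tested. Plxna4, a partner of neuropilins in the response to Sema3a, had 0.29, 0.364 and 0.416 TPM against 0.87, 0.851 and 0.887 TPM, on raw counts of 79, 87 and 111 against 226, 207 and 232. Its log2 ratios of -1.44, -1.27 and -1.08 were close to each other, with an adjusted p = 0.182 from edgeR.

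Plxna1, a neuropilin partner also found on dendritic cells, had 12.3, 16.2 and 37.7 TPM in the lesions and 13, 10.8 and 9.09 TPM in the circle of Willis, with the lesion of animal 3 far above all other libraries. Plxnc1, the receptor of Sema7a, had 1.16, 3.01 and 6.01 TPM against 2.62, 4.37 and 2.53 TPM, lower in the lesions of animals 1 and 2 and higher in animal 3. Nrp1, the coreceptor of Sema3a and vascular endothelial growth factor, had 9.66, 14.4 and 28.2 TPM against 11.4, 11.4 and 8.47 TPM and again stood out in the lesion of animal 3, where the macrophage sum was the highest. The part of macrophages in these values was not tested. Nrp2 (Rnor6 chromosome 9, 69497121 to 69612087), the coreceptor of Sema3f and Sema3g, had 25.9, 46.8 and 33.7 TPM in the lesions and 26.3, 27.4 and 15.1 TPM in the circle of Willis. It was level in animal 1 and higher in animals 2 and 3, at log2 ratios of 0.10, 0.71 and 1.16 (edgeR adjusted p = 0.231).

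Plxnb3, a plexin of oligodendrocytes and a receptor of Sema5a, passed the 1.5-fold rule in every animal, with 0.828, 7.91 and 2.68 TPM in the lesions and 0.538, 0.613 and 1.49 TPM in the circle of Willis. Its log2 ratios were 0.74, 3.61 and 0.85 (edgeR adjusted p = 0.257), so that animal 2 was again far above the others. The EphB receptor Ephb1 had 0.234, 7.82 and 1.61 TPM in the lesions and 0.582, 0.646 and 1.28 TPM in the circle of Willis, and Sema5b had 1.11, 6.88 and 0.799 against 1.63, 0.984 and 1.49 TPM. Set together with their values known, all 4 of Sema4d, Plxnb3, Ephb1 and Sema5b had their highest level in the lesion of animal 2. Other members, such as Sema7a, Unc5b and Nrp2, were highest in that library too. That library also had the highest sum of oligodendrocyte and myelin markers, 4181 TPM against 143.1 to 530.4 TPM in the others. It was not the only sum that was highest there: the Schwann cell sum was 326 TPM, and the neutrophil sum of 6 markers was 395 TPM against 17.4 to 73.4 TPM. Of these 6 markers 3 were over 1.5-fold higher in all 3 animals. Most of the 395 TPM was S100a8 and S100a9, at 140 and 226 TPM. Mpo had at most 0.177 TPM in any library and was lower in the lesion than in the control artery of animals 2 and 3. The fibroblast, astrocyte and choroid plexus sums were highest in the lesion of animal 2 too. By the median log2 ratio in animal 2, however, the fibroblast markers were at -0.59 and the astrocyte markers at -0.23, with the choroid plexus markers at 4.23. Most of the fibroblast sum of 4466 TPM in that lesion was Col1a1, at 3605 TPM. Of the 8 oligodendrocyte and myelin markers 2 were over 1.5-fold higher in all 3 animals and none of the 8 was at 0 in any library. The part of any of these cell types in the values of these members was not tested.

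**Figure D4:**
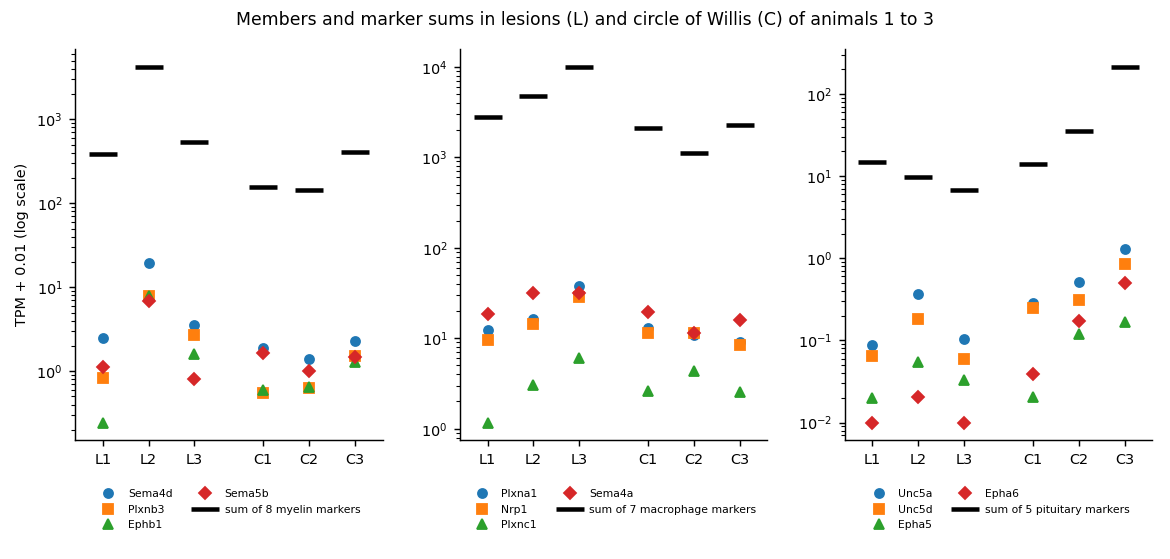
TPM (0.01 added, log scale) in the 3 lesions (L1 to L3) and 3 circle of Willis libraries (C1 to C3) of 4 members in each panel, with a black bar for the summed TPM of the markers of oligodendrocytes and myelin (left), macrophages (middle) and pituitary (right). In the left panel all 4 members and the marker bar are highest in L2. In the right panel the members and the bar, which is mostly Cga there, are highest in C3. The members of each panel were chosen with their values known, so these matches are no test. Other members not shown, such as Sema7a, Unc5b and Nrp2, were also highest in L2.

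The 4 ephrin and Eph families differed among themselves. The EphA receptors had a median log2 ratio of -0.94, with 5 of 7 means below 0, and a summed TPM of 0.746, 0.658 and 0.889 times that of the control artery within the 3 animals. The ephrin-B ligands had a median of 0.00, yet their sum was 0.878, 0.599 and 0.859 times that of the control artery. The medians were 0.05 for the ephrin-A ligands and 0.04 for the EphB receptors. Without animal 2 the median was -0.36 for the EphA receptors and -0.36 for the ephrin-B ligands. Epha5, the EphA receptor with the lowest mean, then no longer passed the filter on low counts, so the EphA medians are not over the same genes. Efnb3 (Rnor6 chromosome 10, 56161432 to 56167426), a ligand of EphB receptors and Epha4, had 54.2, 17.5 and 17.2 TPM in the lesions and 65.6, 76.5 and 38.9 TPM in the circle of Willis. It was near its control in animal 1 and lower in animals 2 and 3, at log2 ratios of -0.15, -2.19 and -1.18 (edgeR adjusted p = 0.231). Efnb1 had 59.7, 46.6 and 51 TPM against 62.9, 55.3 and 36.5 TPM and a log2 ratio of 0.07 (standard error 0.23). Efnb2, the ephrin of arterial endothelium and smooth muscle, had 10.7, 22.7 and 14 TPM against 13.4, 13.1 and 20.2 TPM, and its receptor Ephb4 had 23.5, 18.7 and 24 TPM against 28.1, 29.7 and 20.9 TPM. Their log2 ratios were 0.00 (standard error 0.38) and -0.22 (standard error 0.27), and the tissues overlapped for both.

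Of the EphA receptors, Epha4, which binds both classes of ephrin, had 2.47, 2.0 and 1.55 TPM in the lesions and 4.07, 4.24 and 3.31 TPM in the circle of Willis, with no overlap. Its log2 ratio was -0.94 (standard error 0.17), and it was over 1.5-fold lower in each animal (edgeR adjusted p = 0.181). Epha3, a receptor of mesenchymal cells, had 1.06, 1.35 and 1.55 TPM against 2.38, 3.57 and 2.3 TPM and did not overlap either, at -1.03 (standard error 0.26) on the log2 scale. Epha2, the most abundant EphA receptor, stayed close to its controls with 8.45, 10.8 and 8.05 TPM against 8.5, 9.44 and 6.38 TPM. Its ligand Efna1 had 23.1, 19.9 and 21.1 against 18.4, 17 and 28.9 TPM and was lower in the lesion of animal 3 only. Efna4 had the highest mean log2 ratio of its family, 0.34 (standard error 0.27). Efna5 passed the rule as lower on raw counts of 0, 5 and 3 in the lesions against 12, 15 and 14, which leaves its ratio imprecise. The raw counts of Epha5 were 4, 16 and 9 against 4, 39 and 61 and those of Epha6 0, 1 and 0 against 3, 16 and 51, and both were highest in the control artery of animal 3, as Unc5a and Unc5d were.

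**Figure D5:**
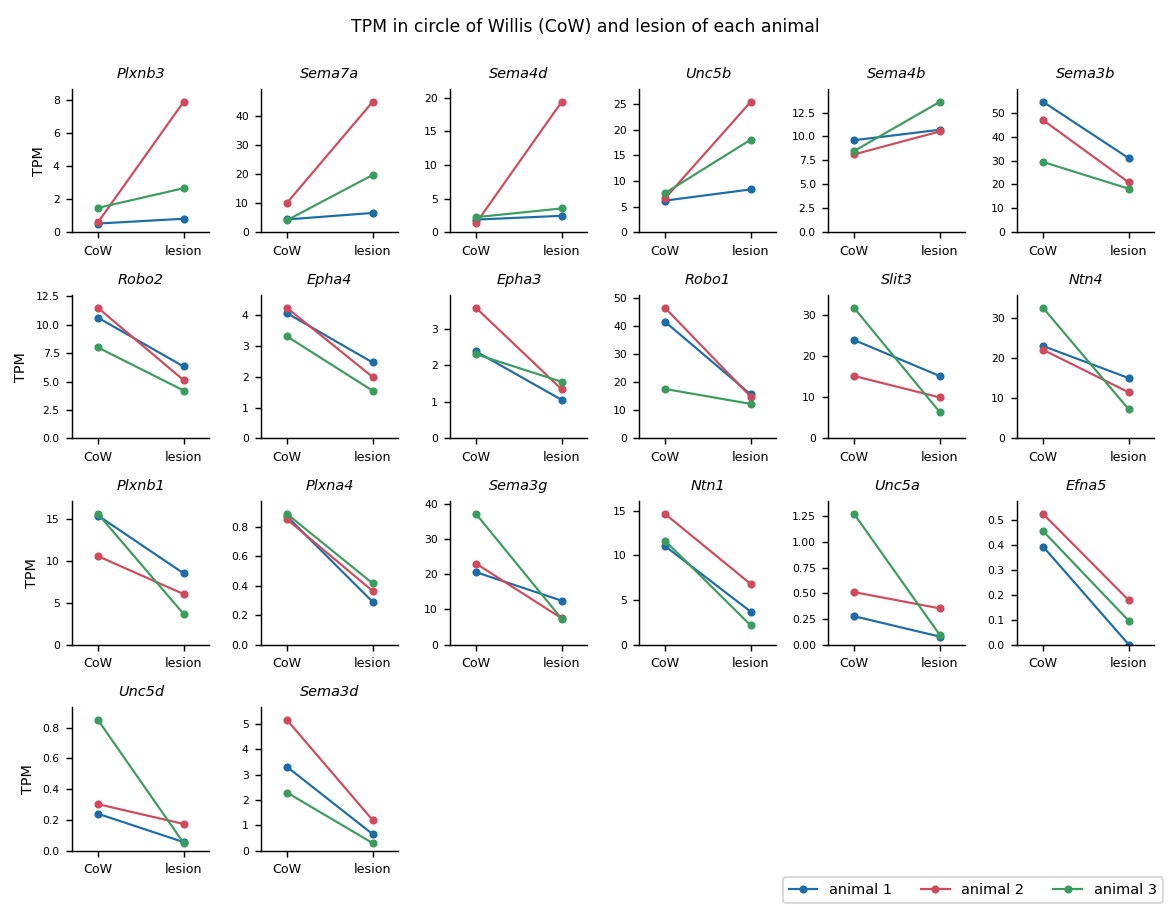
TPM in the circle of Willis (CoW) and the lesion of each animal, 1 panel for each gene that was over 1.5-fold apart the same way in all 3 animals or whose lesions and circles of Willis did not overlap, ordered by mean log2 ratio, each axis starting at 0. The lines of Sema3d, Ntn1, Plxna4 and Robo2 run downward in all 3 animals, and those of Unc5b and Sema7a are flattest in animal 1.

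The 21 members outside the rule for named genes had mean log2 ratios from -0.95 to 0.49 in the 18 of them that were tested. None was over 1.5-fold apart the same way in all 3 animals, and their highest median in the circle of Willis was 9.84 TPM.

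Beyond the ligands and receptors, 53 partners and effectors of these pathways were all tested, such as Dcc and the cytoskeletal and GTPase regulators. None was over 1.5-fold higher in all 3 animals (2.75% of all genes tested) and 6 were lower (5.51% of all), and their median log2 ratio was -0.16, beside -0.17 for the guidance genes and -0.03 for all genes tested. At an unadjusted p under 0.05 from edgeR 5 were higher, close to the 8.63% of all genes, and 12 were lower, beside 12% of all genes, and none passed when adjusted. DESeq2 called 2 higher and 9 lower, beside 5.38% and 6.37% of all genes. Lower in all 3 animals were Srgap3, a GTPase-activating protein that binds Robo receptors, at -1.64 (standard error 0.06), Ablim3, an actin-binding protein, at -1.87 (standard error 0.22) and Dcc, the netrin receptor, at -1.58 (standard error 0.06). The others were Tiam1, a Rac activator, at -1.41, Rgmb, a ligand of neogenin, at -0.86 and Arhgef12, an effector bound by plexin B, at -0.81. Dcc was barely detected, at 0.018, 0.058 and 0.070 TPM in the lesions against 0.082, 0.170 and 0.239 TPM, which leaves its ratio imprecise. Its adjusted p was 0.203 from edgeR and 0.187 from DESeq2.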

How the data were processed

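RNA from lesions and control arteries of 3 rats was sequenced from stranded poly(A) libraries. The authors aligned the read pairs to Rnor6 with CLC genomics workbench. They deposited, for each gene and library, raw counts and TPM (scaled by gene length and to a common total), beside RPKM and CPM columns that were not used here. For the counting, no strand setting is given in the sources used here, so overlapping genes are uncertain. Columns of the authors' own comparisons (fold changes, p-values) were not used.

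The counts were fitted by edgeR (4.0.16, quasi-likelihood, TMM factors, filterByExpr) under R 4.3.3, with the animal as a block, and p-values were adjusted by Benjamini-Hochberg over 15367 genes. DESeq2 (1.42.0) and limma-voom (3.58.1) were alternatives. The steps were tested on simulated data. The labels number the animals, which pairs the samples, and the deviations of the paired libraries correlated at 0.389, 0.300 and 0.069. P-values set the mean difference within an animal against its spread between 3 animals. All 3 tools estimate that spread with help from the other genes.

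The members and lists were chosen with earlier results of these data known. The genes named are those over 1.5-fold the same way in all animals, those with an unadjusted p under 0.05 from edgeR, in each family the members with the highest median TPM in either tissue and the largest and smallest mean log2 ratio, and members with an established role in vessels or leukocytes. Sema5b, Unc5c, Slit1, Robo3, Epha6 and Epha10 were added after their values were seen.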

Additional observations from a re-analysis of the deposited data

How the results depend on the processing

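At the same threshold on the adjusted p, DESeq2 called 826 genes higher and 979 lower (5.38% and 6.37%) where edgeR called 0 and 0 (1326 and 1840 at an unadjusted p). Among the guidance genes DESeq2 called 3 and 15. At an unadjusted p DESeq2 had 8 guidance genes higher and 22 lower, beside 11.8% and 13.5% of all genes. Without the replicate block, edgeR called 1 gene lower over all genes and 0 guidance genes, and the pairing changed no other call at the adjusted p. At an unadjusted p, 6 guidance genes were higher and 17 lower without the block (8.69% and 8.4% of all genes): Efnb3, Nrp2, Ntn5, Sema4b and Sema6c were lost and Efna5, Plxna1, Plxnb3, Sema4d and Unc5a gained. With 2-fold in place of 1.5-fold in every animal, 0 guidance genes were higher and 4 lower (Efna5, Ntn1, Plxna4 and Sema3d), beside 1.24% and 1.95% of all genes. With DESeq2's size factors 8 were lower, without Epha4, Sema3g and Unc5a (5.09% of all genes), and with the authors' TPM 13 were lower (5.82%). Requiring a CPM of at least 1 in 3 libraries removed low genes and moved the family medians from -1.38 to 0.20 for the Unc5 receptors and from 0.05 to 0.31 for ephrin-A. Overlap was judged in TPM. In the TMM-normalized CPM used for the ratios, an alternative for overlap chosen after seeing the data, 6 members lay higher without overlap (10.3% of all genes).

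Leaving out each animal in turn gave 445 to 1948 genes higher and 964 to 1808 lower at an unadjusted p from edgeR. These are 2.9% to 12.5% and 6.27% to 11.6% of all genes, beside 2 to 6 and 10 to 18 guidance genes. By the 1.5-fold rule 2 to 7 guidance genes were higher and 12 to 18 lower, beside 3.88% to 11.6% and 6.95% to 11.9% of all genes. Without overlap 5 to 15 were higher and 18 to 25 lower, beside 15% to 27.6% and 21.9% to 28%. The median log2 ratio ran from -0.36 to 0.12 for ephrin-B and from -0.98 to -0.36 for the EphA receptors. The EphA receptors that passed the filter on low counts changed too: Epha6 and Epha10 passed without animal 1, and Epha5 failed without animal 2. Of 363 values of named members under the alternatives, 346 kept their sign, and of 96 family medians 86 did. Members with few counts, such as Efna5, Epha5 and Unc5d, are limited by depth, and with 3 animals the ratios rest on few samples.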
